A study of Mus musculus with 32 samples.

Results

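The 31 genes described here make, import, store, sense and export cholesterol in 3T3-L1 adipocytes, fat cells differentiated from a mouse embryonic fibroblast line. They were chosen by name for their roles, at a time when earlier results of these data were known. They were matched by gene symbol to the Ensembl identifiers of a raw count table. The table lists 57186 genes, of which 14428 held enough counts to be tested, and all 31 cholesterol genes were among these. Fully differentiated cells received for 24 h the solvent DMSO (called vehicle here), SCO, CAP7 or rosiglitazone (ROSI, an agonist of the nuclear receptor PPARgamma), either alone or together with the inflammatory cytokine TNF. This made 8 groups of 4 libraries, 32 in all, and each library counts the 3' ends of mRNA. The series title names an extract of the plant Artemisia scoparia. The sources used here do not state what CAP7 is or at which doses the agents were given. The labels call the 4 libraries of a group biological replicates of this 1 cell line and give no culture date or batch, so p-values measure the spread between these samples.

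Cells build cholesterol from acetyl-CoA through the mevalonate pathway, which runs from Acat2 and Hmgcs1 to farnesyl pyrophosphate, and then through squalene and lanosterol to cholesterol. When membrane sterol is low, the escort protein Scap carries the transcription factor precursor Srebf2 from the endoplasmic reticulum to the Golgi, where it is cut and released to switch on the enzyme genes. Insig1 and Insig2 hold Scap back when sterol is high, and Insig1 is itself a target of the factor. Oxysterols also hold the complex back, and they activate LXR receptors such as Nr1h2, which switch on the efflux pumps Abca1 and Abcg1 and the receptor-degrading ligase Mylip. Adipocytes hold a large pool of free cholesterol at the surface of the lipid droplet.

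Library totals ran from 11312837 to 37675008 counts, and 28862 genes had at least 1 count. Levels are given in normalized CPM, each library's counts scaled to a common total and a composition factor, and a gene is called higher or lower at an adjusted p under 0.05 in edgeR's quasi-likelihood test over all 14428 genes. The adipocyte markers (10 of 10 above 1 CPM, among them Adipoq, Plin1 and Fabp4) summed to 42300 to 44700 CPM in vehicle and to 12500 to 14600 CPM with TNF, and rose again to 33300 to 40600 CPM with TNF and SCO, 36200 to 44900 with CAP7 and 52300 to 65400 with ROSI. Without TNF the adipocyte sum was 64000 to 71800 CPM with SCO, 54300 to 67100 with CAP7 and 71300 to 84700 with ROSI. The preadipocyte and fibroblast markers, 7 of 8 of them above 1 CPM, summed to 2090 to 2560 CPM in vehicle, 1480 to 1640 with SCO, 1300 to 1600 with CAP7 and 1490 to 1690 with ROSI. With TNF that sum was 1570 to 1740 CPM in vehicle, 1130 to 1420 with SCO, 1170 to 1590 with CAP7 and 1290 to 1520 with ROSI. Of 8 leukocyte markers, 3 reached 1 CPM and the defining genes Ptprc, Adgre1, Itgam and Fcgr1 stayed under 0.1 CPM in every group, while the sum went from 11.1 to 14.8 CPM in vehicle to 39.4 to 50.8 CPM with TNF. Of 8 endothelial and mural markers, 3 reached 1 CPM, with Cdh5, Kdr and Tek under 0.1 CPM. Their sum was 234 to 262 CPM in vehicle and 448 to 513 with TNF, and with each compound it was lower than with vehicle in the same state. The adipocyte sum fell with TNF and rose with each compound, as most synthesis enzymes did in the comparisons below. The leukocyte and endothelial sums had higher means with TNF and lower means with each compound. The preadipocyte and fibroblast sum had a lower mean both with TNF and with each compound. The part of these marker sums in the results below was not tested.

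Scaling by library totals alone, without the composition factor, shifted the median of all genes by -0.067 to -0.156 on the log2 scale in the comparisons of a compound with vehicle. It also lowered the share of all calls that were higher from between 49.2% and 62.0% to between 27.8% and 44.2%. The counts of cholesterol genes under that scaling therefore stand beside those below.

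TNF lowered almost the whole cholesterol synthesis pathway. Of the 18 synthesis enzymes, 17 fell and none rose, with a median log2 change of -0.79 against -0.01 over all tested genes, and the median enzyme stood at 57.9% of its vehicle level. Of all 31 genes, 20 were called lower and 8 higher, where TNF called 27.5% of all tested genes lower and 26.7% higher. Under library totals alone the split was 19 lower and 8 higher, and 17 enzymes were again lower. Fewer cells of a type and less RNA per cell cannot be told apart in such bulk samples.

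The largest falls among the 7 enzymes from acetyl-CoA to farnesyl pyrophosphate were at Pmvk, phosphomevalonate kinase, and Idi1, the isopentenyl isomerase. Pmvk read 91.2, 87.4, 95.8 and 79.95 CPM in the 4 vehicle libraries and 26.1, 30.8, 26.7 and 33.7 CPM with TNF (log2 change -1.60, SE 0.095, adjusted p = 2.66e-17). Idi1 was at 4.08, 7.64, 5.47 and 5.04 CPM in vehicle and 2.64, 1.89, 2.53 and 2.44 CPM with TNF (log2 change -1.21, SE 0.20, adjusted p = 1.8e-06), and its lowest library held 37 counts. In both genes every library with TNF lay below every vehicle library. Hmgcs1, which makes HMG-CoA, went from 569, 569.7, 542 and 552 CPM to 318, 309, 319 and 332 CPM (log2 change -0.81, SE 0.067, adjusted p = 3.48e-13). Acat2, the thiolase that opens the pathway, went from 333, 326, 328 and 324 CPM to 195, 197, 193 and 209.5 CPM (log2 change -0.72, SE 0.064, adjusted p = 2.2e-12). These 2 opening enzymes had a spread between replicates of a few percent, far under the change. Mevalonate kinase, Mvk, stood at 79.4, 71.1, 83.3 and 70.7 CPM in vehicle and at 47.4, 50.4, 48.3 and 52.2 CPM with TNF (log2 change -0.62, SE 0.079, adjusted p = 1.58e-08). Fdps, which makes farnesyl pyrophosphate, stood at 270.4, 278, 268 and 252 CPM in vehicle and at 129, 144, 136 and 149 CPM with TNF (log2 change -0.94, SE 0.062, adjusted p = 6.38e-16). The decarboxylase Mvd changed less than the other 6, from 106, 113, 112 and 99.6 CPM to 81.5, 82.4, 72.2 and 86.9 CPM (log2 change -0.41, SE 0.078, adjusted p = 2.16e-05).

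**Figure D1:**
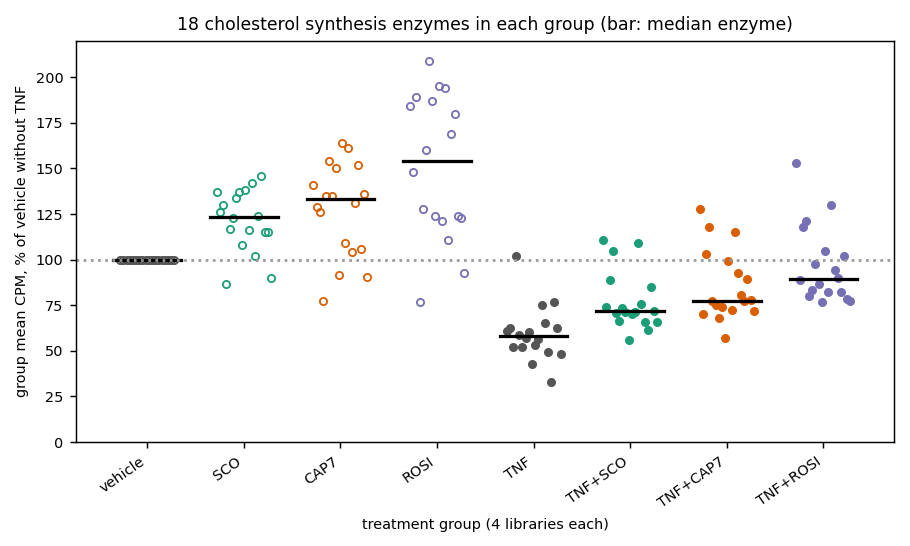
Mean level of each of the 18 synthesis enzymes in each group of 4 libraries, as a percent of its level in vehicle without TNF (vertical axis). Each point is 1 enzyme and each bar is the median enzyme: 124% with SCO, 133% with CAP7 and 154% with ROSI, 57.9% with TNF, and 71.7%, 77.5% and 89.2% with TNF plus SCO, CAP7 and ROSI.

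In the 11 enzymes from squalene to cholesterol, 10 fell with TNF. Nsdhl, which removes methyl groups from the sterol ring, read 199.6, 201, 199 and 188 CPM in vehicle and 96.7, 96.7, 90.4 and 103 CPM with TNF (log2 change -1.02, SE 0.063, adjusted p = 6.48e-17). The sterol reductase Tm7sf2 read 52.6, 40.5, 39.4 and 49.8 CPM in vehicle and 20.8, 17.7, 23.2 and 26.2 CPM with TNF (log2 change -1.05, SE 0.13, adjusted p = 1.46e-08). Dhcr7, the reductase of the closing step, read 84.2, 78.1, 81.4 and 70.5 CPM in vehicle and 37.3, 38.6, 42.1 and 46.1 CPM with TNF (log2 change -0.94, SE 0.092, adjusted p = 2.64e-11). None of these 3 overlapped between the groups. Lanosterol synthase, Lss, was at 73.5, 69.5, 73.8 and 69.2 CPM in vehicle and 39.3, 34.6, 38.6 and 39.02 CPM with TNF (log2 change -0.92). The methylsterol oxidase Msmo1 was at 839, 902, 863 and 833 CPM in vehicle and 483, 469, 479 and 505 CPM with TNF (log2 change -0.83). Squalene synthase, Fdft1, was at 84.5, 82.9, 89.5 and 80.8 CPM in vehicle and 49.8, 52.8, 44.3 and 51.1 CPM with TNF (log2 change -0.77). The groups of these genes were also fully apart. Squalene epoxidase, Sqle, stood at 230.5, 232, 229.7 and 226 CPM in vehicle and 140.1, 139.7, 137 and 155 CPM with TNF (log2 change -0.68). The lanosterol demethylase Cyp51 stood at 241, 250.5, 256 and 254 CPM in vehicle and 156, 153, 153 and 162 CPM with TNF (log2 change -0.68). Hsd17b7, a sterol ketoreductase, stood at 89.5, 90.4, 85.1 and 105 CPM in vehicle and 56.5, 51.9, 51.98 and 61.5 CPM with TNF (log2 change -0.73). Sc5d, a sterol desaturase, had the smallest change of the 10, being at 177 to 182 CPM in vehicle and at 134 to 141 CPM with TNF (log2 change -0.38), still without overlap.

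The exception was Ebp, the sterol isomerase that moves a double bond within the ring. It measured 127, 134, 139 and 122 CPM in vehicle and 121, 139, 128 and 145 CPM with TNF, and these ranges overlapped (log2 change 0.03, 95% interval -0.17 to 0.23, adjusted p = 0.839). The interval for Ebp lay above the changes of all 17 other enzymes.

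Of the promoter table from RefSeq on mouse build GRCm38.p6, which is not the GRCm39 build of the counts, 25 of the 31 genes had an entry of 250 bases before and 50 after the start site. A core of the sterol regulatory element was searched for as TCACNCCAC and the CCAAT box as CCAAT, each on both strands, and no match of the sterol core overlapped one of CCAAT. The sterol core was found in 1 of the 25, Hmgcs1, and in 1.44% of the 27025 genes in the table. CCAAT was found in 20 of the 25, in 14 of 15 enzymes and 6 of 10 other genes, against 41.1% of all genes. These are matches of letters, with no test. Other forms of the sterol element, and bases outside these windows, were not searched, so a gene without a match may still hold an element. The shares over all genes include genes that were not tested here. The 250 bases before the start site are shown for Hmgcs1, as the 1 holder of the sterol core, for Insig1 and Nsdhl, among the strongest falls with TNF, and for Ch25h, the strongest rise, whose window held neither pattern. Capitals mark matches, and ATTGG is CCAAT read from the other strand. Hmgcs1 lies on the plus strand at chr13:119690101-119690350, Insig1 on the plus strand at chr5:28071162-28071411, Nsdhl on the plus strand at chrX:72918271-72918520 and Ch25h on the minus strand at chr19:34475149-34475398.
Hmgcs1: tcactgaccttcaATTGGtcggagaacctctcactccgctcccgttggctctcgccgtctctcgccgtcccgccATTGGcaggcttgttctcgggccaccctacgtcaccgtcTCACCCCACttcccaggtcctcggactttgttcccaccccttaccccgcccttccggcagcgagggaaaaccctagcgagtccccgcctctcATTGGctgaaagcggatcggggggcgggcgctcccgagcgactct
Insig1: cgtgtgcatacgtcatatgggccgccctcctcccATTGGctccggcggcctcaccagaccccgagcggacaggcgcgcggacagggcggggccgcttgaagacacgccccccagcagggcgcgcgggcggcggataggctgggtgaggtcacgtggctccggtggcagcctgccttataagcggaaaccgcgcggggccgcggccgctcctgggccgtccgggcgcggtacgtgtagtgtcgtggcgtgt
Nsdhl: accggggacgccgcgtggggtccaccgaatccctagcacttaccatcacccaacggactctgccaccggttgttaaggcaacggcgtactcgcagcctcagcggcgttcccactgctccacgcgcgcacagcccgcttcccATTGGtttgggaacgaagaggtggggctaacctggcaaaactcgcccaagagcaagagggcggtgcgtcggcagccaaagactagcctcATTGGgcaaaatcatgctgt
Ch25h: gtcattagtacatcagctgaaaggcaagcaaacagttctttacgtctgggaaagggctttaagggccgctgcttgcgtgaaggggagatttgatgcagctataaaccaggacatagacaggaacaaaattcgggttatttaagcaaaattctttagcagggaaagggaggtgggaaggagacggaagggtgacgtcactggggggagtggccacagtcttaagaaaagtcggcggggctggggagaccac
The sterol core of Hmgcs1 begins 137 bases before the start site. It lies between CCAAT matches that begin 176 and 45 bases before that site. Nsdhl holds 2 CCAAT matches and Insig1 holds 1 in the stretch shown. Hmgcs1 was chosen for printing after its values and matches were seen. The planned set also held Pmvk, which fell, and Soat1 and Abca1, which rose, and their sequences are not shown. Pmvk had 2 windows with 1 CCAAT match between them, Soat1 had 1 CCAAT match and Abca1 had neither pattern.

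Of the 4 sterol-sensing genes, Insig1 fell with TNF as far as any enzyme. It read 209, 164, 151 and 184 CPM in vehicle and 50.4, 52.95, 58.6 and 61.8 CPM with TNF (log2 change -1.66, SE 0.10, adjusted p = 6.34e-17), with no overlap. Scap, the escort, rose, and was at 35.3 to 40.9 CPM in vehicle and at 45.9 to 48.5 CPM with TNF (log2 change 0.31, SE 0.065, adjusted p = 8.83e-05). The mRNA of Srebf2 itself was at 103 to 124 CPM in vehicle and 119.6 to 122 CPM with TNF (log2 change 0.09, 95% interval -0.06 to 0.23, adjusted p = 0.33). Insig2 was at 52.6 to 60.2 CPM and 51.6 to 59.2 CPM (log2 change -0.02, 95% interval -0.21 to 0.18, adjusted p = 0.897). The ranges overlapped for both genes.

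Among genes of uptake and transport, the lysosomal exporters rose with TNF. Npc1, the membrane-bound exporter, went from 22.8, 24.3, 21.8 and 25.8 CPM to 46.98, 43.8, 48.3 and 41.1 CPM (log2 change 0.93, SE 0.12, adjusted p = 2.31e-08), and the groups did not overlap. Npc2, its soluble partner, was at 1553 to 1827 CPM in vehicle and at 2008 to 2524 CPM with TNF (log2 change 0.40, SE 0.077, adjusted p = 2.51e-05). Mylip, the ligase that sends lipoprotein receptors to degradation, fell from 33.9, 31.01, 34.5 and 36.1 CPM to 20.2, 13.96, 17.2 and 16.3 CPM, to 0.501 of the vehicle level (SE 0.093 on the log2 scale, adjusted p = 8.8e-12). The sterol carrier Stard4 had a log2 change of -0.18 (adjusted p = 0.0378). Its call was lost, with adjusted p of 0.063 to 0.0969, when vehicle replicate 1, 2 or 4 or TNF replicate 2 or 3 was left out.

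The storage and oxysterol genes had the largest rises. Soat1, which esterifies cholesterol for storage, read 44.03, 41.1, 39.6 and 53.1 CPM in vehicle and 98.1, 101, 102 and 118 CPM with TNF (log2 change 1.24, SE 0.11, adjusted p = 2.2e-12). Ch25h, which makes an oxysterol and is known as a gene of inflamed macrophages, had 3, 0, 0 and 0 counts in the vehicle libraries and 404, 460, 595 and 482 counts with TNF. In CPM the TNF libraries stood at 16.7, 23.4, 20.6 and 19.3. The ratio of summed counts, scaled to library size, was 434, with an exact 95% counting interval of 148 to 2110 that covers counting error only. Ch25h passed the low-count filter through the groups with TNF, so it had to differ, and it was at 0 in 12 of the 16 libraries without TNF. Of the other 30 genes, 7 rose and 20 fell. The 8 leukocyte markers, of which 3 reached 1 CPM and Ptprc, Adgre1, Itgam and Fcgr1 stayed under 0.1 CPM, moved with Ch25h, from a sum of 11.1 to 14.8 CPM in vehicle to 39.4 to 50.8 CPM with TNF, and their part in this result was not tested.

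The efflux pumps and their receptor rose by smaller steps. Abca1, which loads cholesterol onto lipid-poor apolipoprotein, was at 88.1 to 100.2 CPM in vehicle and at 121 to 139.9 CPM with TNF (log2 change 0.48, SE 0.076, adjusted p = 1.23e-06). Abcg1, which exports to mature particles, was at 62.6 to 70.5 CPM in vehicle and at 76.8 to 85.1 CPM with TNF (log2 change 0.28, SE 0.071, adjusted p = 0.00092), and the receptor Nr1h2 was at 33.7 to 41.3 CPM in vehicle and at 44.8 to 48.9 CPM with TNF (log2 change 0.28, SE 0.079, adjusted p = 0.00295). For all 3 genes the libraries with TNF lay above the vehicle libraries.

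**Figure D2:**
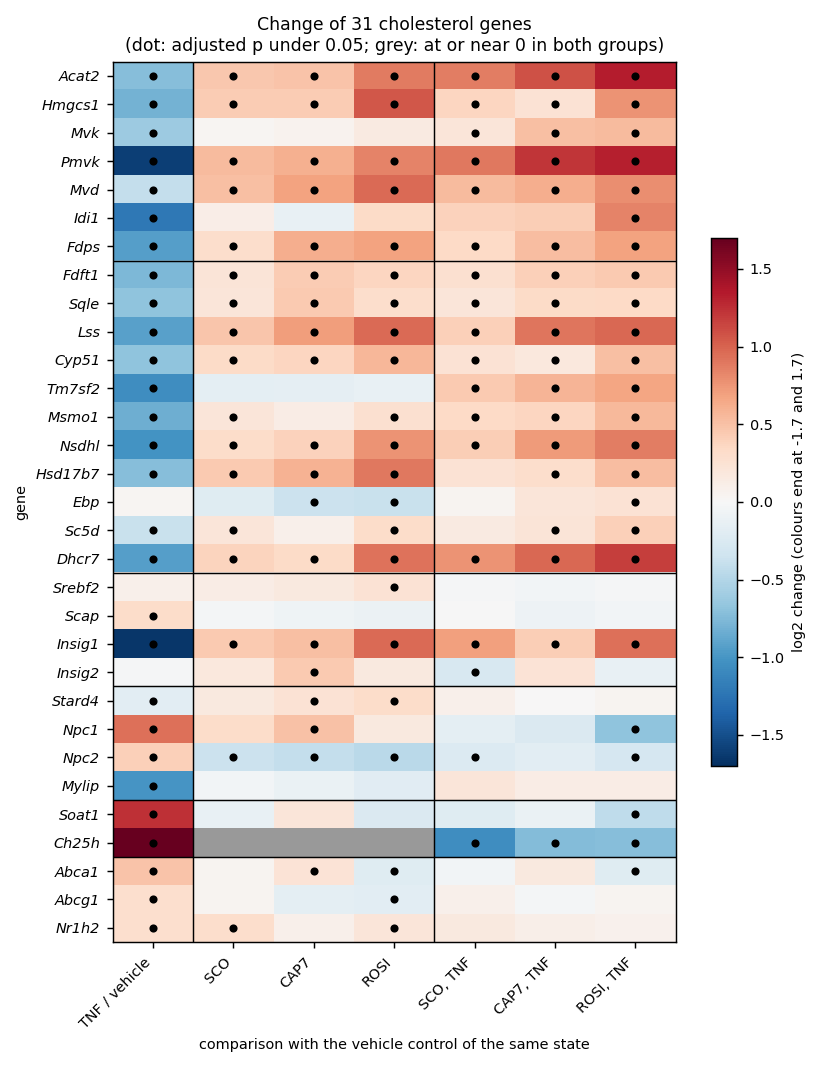
Log2 change of the 31 genes (rows, in blocks of mevalonate steps, sterol steps, sensing, uptake and transport, storage and oxysterol, efflux) in the 7 comparisons with a vehicle control (columns). A dot marks adjusted p under 0.05, and Ch25h is left grey where it was at or near 0 in both groups. With TNF 20 genes were lower, and with ROSI plus TNF all 18 enzymes were higher than with TNF alone.

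Without TNF, each compound raised most of the pathway. SCO raised 14 of the 18 enzymes and lowered none, with a median log2 change of 0.30. CAP7 raised 12 and lowered 1, with a median of 0.41, and ROSI raised 14 and lowered 1, with a median of 0.62. The median over all tested genes was between -0.01 and -0.03. Of all 31 genes, SCO called 16 higher and 1 lower, where it called 10.3% of all tested genes higher and 8.99% lower. CAP7 called 17 higher and 2 lower, with 15.2% and 15% of all tested genes. ROSI called 18 higher and 4 lower, with 18.4% and 19% of all tested genes. Under library totals alone these splits were 13 and 2 for SCO, 14 and 4 for CAP7 and 14 and 7 for ROSI, and the enzymes called higher were 11, 11 and 13, with 1 lower each. The 3 comparisons share the same 4 vehicle libraries.

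Hmgcs1 showed the largest enzyme rise with ROSI. Its 4 libraries read 1188, 1157, 1206 and 1110.0 CPM, at 209% of the vehicle mean (log2 change 1.06, SE 0.067, adjusted p = 8.59e-16). With SCO they read 702, 730.1, 828 and 739 CPM (log2 change 0.43, SE 0.067, adjusted p = 7.24e-06) and with CAP7 764, 794, 714 and 734 CPM (log2 change 0.43, SE 0.067, adjusted p = 2.77e-06). All 12 libraries lay above the vehicle libraries, and the ROSI libraries lay above the rest. Acat2 followed the same order of groups, at 454, 482, 448 and 416 CPM with SCO (log2 change 0.46), 432, 489, 465 and 463 CPM with CAP7 (0.49) and 632, 603, 609.7 and 569.6 CPM with ROSI (0.88). Pmvk read 123, 128, 125 and 140.3 CPM with SCO (log2 change 0.54), 133, 146, 138 and 119 CPM with CAP7 (0.60) and 166, 156, 139 and 174 CPM with ROSI (0.84). In both of these genes the SCO and CAP7 libraries overlapped each other and none overlapped vehicle.

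Mvd read 163, 145, 163 and 142 CPM with SCO (log2 change 0.51), 163, 193, 172 and 162 CPM with CAP7 (0.68) and 204, 191, 236 and 207 CPM with ROSI (0.96), all above the vehicle libraries. Dhcr7 read 98.6, 102, 114 and 93.9 CPM with SCO (log2 change 0.38), 81.8, 115, 95.8 and 102 CPM with CAP7 (0.33) and 152, 151, 158 and 133 CPM with ROSI (0.92). With CAP7 1 library of Dhcr7, at 81.8 CPM, fell within the vehicle range of 70.5 to 84.2 CPM. Nsdhl rose by 0.31, 0.39 and 0.76 on the log2 scale with SCO, CAP7 and ROSI, Lss by 0.47, 0.71 and 0.96, and Hsd17b7 by 0.45, 0.59 and 0.90. Cyp51 rose by 0.33, 0.37 and 0.57, and Fdps by 0.30, 0.62 and 0.68. Fdft1 and Sqle had their highest estimates with CAP7, 0.43 and 0.45, against 0.36 and 0.30 with ROSI. With SCO their calls were weak: Fdft1 (0.22, adjusted p = 0.0156) lost its call without vehicle replicate 4 or SCO replicate 3, with adjusted p of 0.0611 and 0.0833. Sqle with SCO (0.21, adjusted p = 0.0389) lost its call, with adjusted p of 0.0653 to 0.0991, without any 1 of the 4 vehicle libraries or SCO replicate 2, 3 or 4. In all, 12 enzymes were called higher with all 3 compounds: Acat2, Hmgcs1, Pmvk, Mvd, Fdps, Fdft1, Sqle, Lss, Cyp51, Nsdhl, Hsd17b7 and Dhcr7. The share of all tested genes called higher with all 3 was not computed.

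A few enzymes stood outside this pattern without TNF. Mvk, Idi1 and Tm7sf2 were not called with any compound, with ROSI estimates of 0.15 (SE 0.079), 0.32 (SE 0.18) and -0.12 (SE 0.13). Ebp was called lower with CAP7 and ROSI. It read 124, 114, 104 and 112 CPM with SCO (log2 change -0.20, adjusted p = 0.164), 91.03, 106, 95.9 and 112 CPM with CAP7 (log2 change -0.37, SE 0.099, adjusted p = 0.00361) and 111, 95.8, 79.04 and 117 CPM with ROSI (log2 change -0.38, SE 0.099, adjusted p = 0.00239). The CAP7 and ROSI libraries of Ebp all lay below the vehicle range of 122 to 139 CPM. Msmo1 was called higher with SCO (0.21) and ROSI (0.27), and its estimate with CAP7 was 0.12 (adjusted p = 0.0727). Sc5d was likewise called with SCO (0.20) and ROSI (0.31), with 0.08 for CAP7 (adjusted p = 0.253).

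Outside synthesis, Insig1 rose with every compound and Npc2 fell with every compound. Insig1 read 212, 244, 261 and 251 CPM with SCO (log2 change 0.45, SE 0.099, adjusted p = 0.000711), 213, 272, 260.5 and 263 CPM with CAP7 (log2 change 0.51, SE 0.098, adjusted p = 8.36e-05) and 379, 359, 334 and 306 CPM with ROSI (log2 change 0.96, SE 0.099, adjusted p = 2.78e-10). All 12 libraries lay above the vehicle libraries, with a wide gap for ROSI and a narrow one for SCO and CAP7, since vehicle replicate 1 reached 209 CPM. Npc2 changed by -0.37, -0.40 and -0.46 on the log2 scale with SCO, CAP7 and ROSI. CAP7 also raised Npc1 (log2 change 0.50, SE 0.12, adjusted p = 0.00163), Insig2 (log2 change 0.44, SE 0.096, adjusted p = 0.000499) and Stard4 (0.25), and ROSI raised Stard4 (0.31). SCO raised Nr1h2 (log2 change 0.30, SE 0.080, adjusted p = 0.00613).

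The remaining calls without TNF depended on single libraries. Abca1 had a log2 change of 0.23 with CAP7 (adjusted p = 0.016, or 0.062 to 0.0768 without vehicle replicate 1, vehicle replicate 2 or CAP7 replicate 4). With ROSI Abca1 had -0.20 (adjusted p = 0.0349, or 0.0773 to 0.119 without vehicle replicate 3 or 4 or ROSI replicate 1, 2 or 3). Srebf2 had 0.24 with ROSI (adjusted p = 0.00845, or 0.0523 and 0.0553 without vehicle replicate 1 or ROSI replicate 3). Abcg1 had -0.18 with ROSI (adjusted p = 0.0431), lost without vehicle replicate 2, 3 or 4 or ROSI replicate 1, 2 or 3, with up to 0.155. Nr1h2 had 0.20 with ROSI (adjusted p = 0.0405), lost without vehicle replicate 2 or ROSI replicate 2, 3 or 4, with up to 0.189. The pumps, their receptor and Srebf2 thus had estimates of at most 0.24 in size with ROSI.

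In cells given TNF, the compounds raised nearly all enzymes above the level with TNF alone. SCO raised 14 of 18, CAP7 16 and ROSI all 18, and none was called lower. The median log2 changes were 0.35, 0.46 and 0.68, against 0.00 to 0.01 over all tested genes. Of all 31 genes, SCO called 15 higher and 3 lower, where it called 13.2% of all tested genes higher and 8.09% lower. CAP7 called 17 higher and 1 lower, with 18% and 14.2% of all tested genes, and ROSI 19 higher and 5 lower, with 19.6% and 16.3%. Under library totals alone the splits were 13 and 3, 13 and 4, and 18 and 8, with 12, 12 and 17 enzymes called higher. The median enzyme stood at 71.7% of its untreated level with SCO, 77.5% with CAP7 and 89.2% with ROSI. With TNF alone 17 enzymes lay below every untreated library. With SCO 14 did, with CAP7 12 and with ROSI 6. The share of all tested genes lying below every untreated library was not computed, so these counts describe the enzymes alone. The 3 comparisons share the same 4 libraries with TNF alone.

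Acat2 and Pmvk responded most. Acat2 read 195, 197, 193 and 209.5 CPM with TNF alone, 343, 382, 350.2 and 383 CPM with SCO, 441, 379.7, 454 and 404 CPM with CAP7 and 487, 443, 541 and 530.3 CPM with ROSI. The log2 changes were 0.87, 1.08 and 1.33 (SE 0.064, 0.064 and 0.065), and with each compound Acat2 exceeded its untreated range of 324 to 333 CPM. Pmvk read 26.1, 30.8, 26.7 and 33.7 CPM with TNF alone, 54.6, 61.7, 42.98 and 58.1 CPM with SCO, 72.4, 64.6, 68.9 and 67.2 CPM with CAP7 and 74.8, 63.7, 75.9 and 77.95 CPM with ROSI (log2 changes 0.89, 1.22 and 1.32). Pmvk was above TNF alone in all 12 libraries but stayed below its untreated range of 79.95 to 95.8 CPM. Dhcr7 read 37.3, 38.6, 42.1 and 46.1 CPM with TNF alone, 68.6, 74.2, 73.8 and 62.3 CPM with SCO, 76.6, 77.8, 83.3 and 85.2 CPM with CAP7 and 80.5, 89.5, 107 and 94.4 CPM with ROSI (log2 changes 0.77, 0.98 and 1.18). Hmgcs1 read 407, 413, 448 and 378 CPM with SCO, 366, 367, 368 and 419.9 CPM with CAP7 and 486, 522, 635 and 538 CPM with ROSI (log2 changes 0.37, 0.25 and 0.77). For Hmgcs1 all of these lay above TNF alone.

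The next enzymes down the pathway rose as well. Mvd read 115, 119.6, 116 and 117 CPM with SCO, 126, 111, 125 and 135 CPM with CAP7 and 133, 122, 149 and 155 CPM with ROSI (log2 changes 0.54, 0.62 and 0.79). Nsdhl read 131, 134, 131 and 123 CPM with SCO, 154, 151, 165 and 166 CPM with CAP7 and 168, 168, 189 and 180.0 CPM with ROSI (log2 changes 0.42, 0.72 and 0.87). Lss read 54.7, 58.1, 35.4 and 52.4 CPM with SCO, 84.2, 69.3, 69.2 and 61.9 CPM with CAP7 and 75.7, 64.5, 72.7 and 86.4 CPM with ROSI (log2 changes 0.40, 0.91 and 0.98). Mvd and Nsdhl stood above TNF alone in all 12 libraries. The SCO libraries of Lss spread widely and replicate 3, at 35.4 CPM, lay within the range of TNF alone. Without SCO replicate 2 the change of Lss was 0.32 with adjusted p = 0.0646. Tm7sf2 read 33.6, 31.1, 31.6 and 23.5 CPM with SCO, 24.1, 32.01, 36.8 and 38.5 CPM with CAP7 and 33.2, 36.4, 36.2 and 34.8 CPM with ROSI (log2 changes 0.45, 0.58 and 0.67). Its SCO change was 0.37 with adjusted p = 0.0641 when TNF replicate 2 was left out. Fdps rose by 0.34, 0.53 and 0.68, Fdft1 by 0.27, 0.40 and 0.45, and Msmo1 by 0.34, 0.36 and 0.55. Idi1 rose with ROSI, to 3.53, 4.901, 4.01 and 4.61 CPM (log2 change 0.84, SE 0.20, adjusted p = 0.000657), while its estimates with SCO (0.39, SE 0.2) and CAP7 (0.42, SE 0.2) were not called.

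Some of these enzyme calls were close to the threshold. Mvk had a log2 change of 0.21 with SCO (adjusted p = 0.0482), and its call was lost, with up to 0.13, without TNF replicate 1, 2 or 3 or SCO replicate 1, 2 or 4. With CAP7 and ROSI Mvk rose by 0.51 and 0.54. Sqle had 0.21 with SCO (adjusted p = 0.0378, or up to 0.155 without TNF replicate 1, 2 or 3 or SCO replicate 2 or 4), and it rose by 0.32 with CAP7 and 0.34 with ROSI. Cyp51 had 0.18 with CAP7 (adjusted p = 0.0198, or up to 0.0661 without TNF replicate 2 or 3 or CAP7 replicate 1), and it rose by 0.25 with SCO and 0.51 with ROSI. Hsd17b7 had 0.30 with CAP7 (adjusted p = 0.031, or up to 0.143 without TNF replicate 2 or 3 or CAP7 replicate 4). Ebp had 0.25 with ROSI (adjusted p = 0.0452, or up to 0.18 without TNF replicate 1, 2 or 3 or ROSI replicate 1 or 4). Counting calls that held whichever single library was left out, SCO raised 10 enzymes, CAP7 14 and ROSI 17. The matching shares of all tested genes were not computed.

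**Figure D3:**
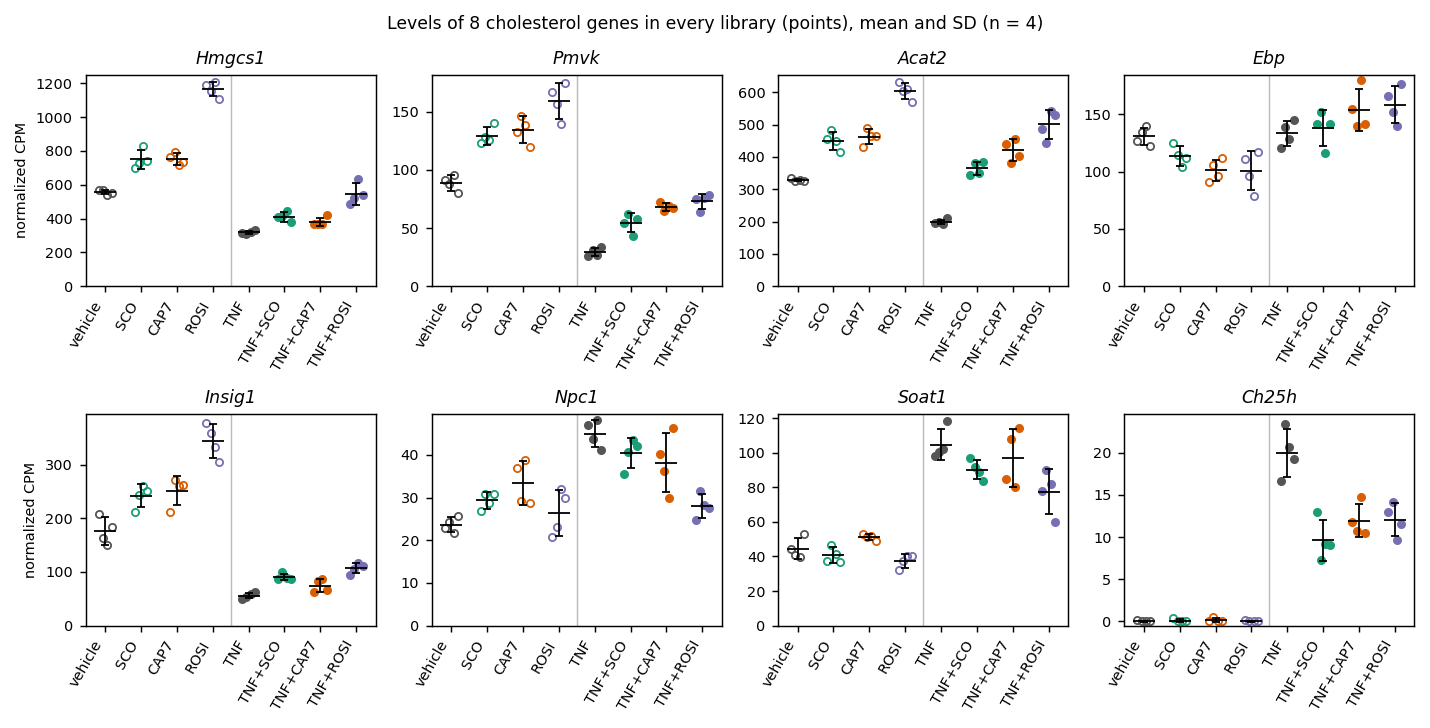
Normalized CPM (vertical axes, linear) of 8 genes in every library of the 8 groups (points, 4 per group), with the mean and SD. Open points are without TNF and filled points with TNF. Hmgcs1, Pmvk, Acat2 and Insig1 drop with TNF and stand higher with each compound in both states, Soat1 and Ch25h stand higher with TNF, and Ebp does not drop with TNF.

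Among the other genes with TNF present, Insig1 and Ch25h changed with all 3 compounds. Insig1 read 86.7, 100.2, 88.9 and 87.2 CPM with SCO (log2 change 0.70, SE 0.10, adjusted p = 1.06e-06), 63.2, 83.2, 86.1 and 66.7 CPM with CAP7 (log2 change 0.42, SE 0.10, adjusted p = 0.0012) and 95.3, 106, 117 and 110.4 CPM with ROSI (log2 change 0.94, SE 0.10, adjusted p = 6.62e-10), so it stayed below its untreated range of 151 to 209 CPM. Ch25h read 12.99, 7.23, 9.14 and 9.05 CPM with SCO (log2 change -1.05, SE 0.24, adjusted p = 0.00123), 11.8, 10.8, 14.8 and 10.4 CPM with CAP7 (log2 change -0.74, SE 0.24, adjusted p = 0.0158) and 13.00, 14.1, 9.62 and 11.6 CPM with ROSI (log2 change -0.73, SE 0.24, adjusted p = 0.0156). All 12 of these libraries lay below the 4 with TNF alone. The CAP7 change of Ch25h was -0.66 with adjusted p = 0.0577 without TNF replicate 2, and the ROSI change was -0.63 with adjusted p = 0.0655 without ROSI replicate 3. Counts with against without TNF gave ratios of 97.9 (exact 95% counting interval 44.8 to 268) with SCO, 95.2 (53.0 to 191) with CAP7 and 308 (105 to 1500) with ROSI, each against 11 or fewer counts without TNF. In each group without TNF all of these counts came from a single library, and the intervals cover counting error only. Ch25h passed the low-count filter through the groups with TNF, so these ratios had to be large. Differences between the ratios were not tested.

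With TNF present, ROSI called 5 of the 31 genes lower, near the 16.3% of all tested genes, and TNF had raised these 5. Both changes use the same 4 libraries with TNF alone, so they are not independent. Npc1 read 24.7, 31.6, 28.2 and 27.5 CPM with TNF and ROSI against 46.98, 43.8, 48.3 and 41.1 CPM with TNF alone (log2 change -0.68, SE 0.12, adjusted p = 1.11e-05), with no overlap. Soat1 read 77.8, 90.1, 82.1 and 59.7 CPM against 98.1, 101, 102 and 118 CPM (log2 change -0.43, SE 0.11, adjusted p = 0.0012), again with no overlap, and Npc2 had a log2 change of -0.29 (adjusted p = 0.00222). With SCO the estimates were -0.16 for Npc1 (adjusted p = 0.396) and -0.21 for Soat1 (adjusted p = 0.161), and with CAP7 -0.24 (adjusted p = 0.122) and -0.11 (adjusted p = 0.457). Npc1 stood at 35.6, 40.7, 43.5 and 42.05 CPM with SCO and 40.3, 36.3, 29.9 and 46.4 CPM with CAP7, and Soat1 at 96.8, 91.6, 88.99 and 83.5 and 84.9, 108, 80.4 and 114 CPM. Abca1 had -0.21 with ROSI (adjusted p = 0.0286, or up to 0.109 without TNF replicate 3 or ROSI replicate 1, 3 or 4). Npc2 had -0.23 with SCO (adjusted p = 0.027, or up to 0.165 without TNF replicate 1 or 4 or SCO replicate 2 or 4), and Insig2 had -0.27 (adjusted p = 0.0384, or up to 0.223 without TNF replicate 1, 2 or 4 or SCO replicate 2 or 3). Abcg1, Nr1h2, Scap, Srebf2, Stard4 and Mylip were not called with any compound in the presence of TNF. Mylip was at 21.4, 17.8, 21.1 and 18.2 CPM with SCO, 19.2, 19.2, 16.6 and 19.5 CPM with CAP7 and 17.8, 19.3, 20.1 and 16.9 CPM with ROSI, below its untreated libraries in all 12.

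Compared directly, SCO and CAP7 left the enzymes lower than ROSI did, in 10 and 9 of 18 without TNF and in 12 and 5 of 18 with TNF, and none was higher. The count of 5 for CAP7 with TNF was 2 when only the groups compared were fitted, and 3 without a low-count filter or after thinning to the lowest library total. Over all 31 genes without TNF, SCO was higher than ROSI in 2 and lower in 11, where 7.39% of all tested genes were called higher and 7.33% lower. CAP7 against ROSI gave 2 higher and 10 lower, with 5.39% and 6.27% of all tested genes. With TNF, SCO against ROSI gave 1 higher and 12 lower, with 5.74% and 8.64%, and CAP7 against ROSI 3 higher and 6 lower, with 3.48% and 5.09%. Under library totals alone the enzymes called lower than with ROSI were 9 and 7 without TNF and 10 and 3 with TNF. The splits over 31 genes were then 2 and 10, 4 and 8, 3 and 10, and 4 and 4. Doses are not given, so these differences hold for the doses used.

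Without TNF the largest enzyme differences from ROSI were at Hmgcs1 and Dhcr7. For Hmgcs1 the log2 difference without TNF was -0.64, 95% interval -0.77 to -0.50 for SCO and -0.63, 95% interval -0.77 to -0.50 for CAP7. With TNF it was -0.41, 95% interval -0.54 to -0.27 for SCO and -0.52, 95% interval -0.66 to -0.39 for CAP7. For Dhcr7 without TNF it was -0.54, 95% interval -0.72 to -0.36 for SCO and -0.59, 95% interval -0.77 to -0.41 for CAP7. In both genes the libraries with SCO or CAP7 without TNF all lay below the ROSI libraries. Acat2 was lower than with ROSI in all 4 comparisons (-0.42 and -0.39 without TNF, -0.46 and -0.25 with TNF), as was Cyp51 (-0.24, -0.20, -0.26 and -0.33). The Cyp51 difference between CAP7 and ROSI without TNF was -0.17 with adjusted p = 0.0821 when CAP7 replicate 4 was left out. Counting calls that held whichever library was left out, SCO was lower than ROSI in 9 enzymes and CAP7 in 5 without TNF, and in 11 and 3 with TNF. Shares of all tested genes were not computed for such calls. For Idi1, Fdft1, Sqle, Tm7sf2 and Ebp no difference from ROSI was called. The 95% intervals of uncalled enzymes ran from -0.84 to 0.37, so sizeable differences remain possible there.

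**Figure D4:**
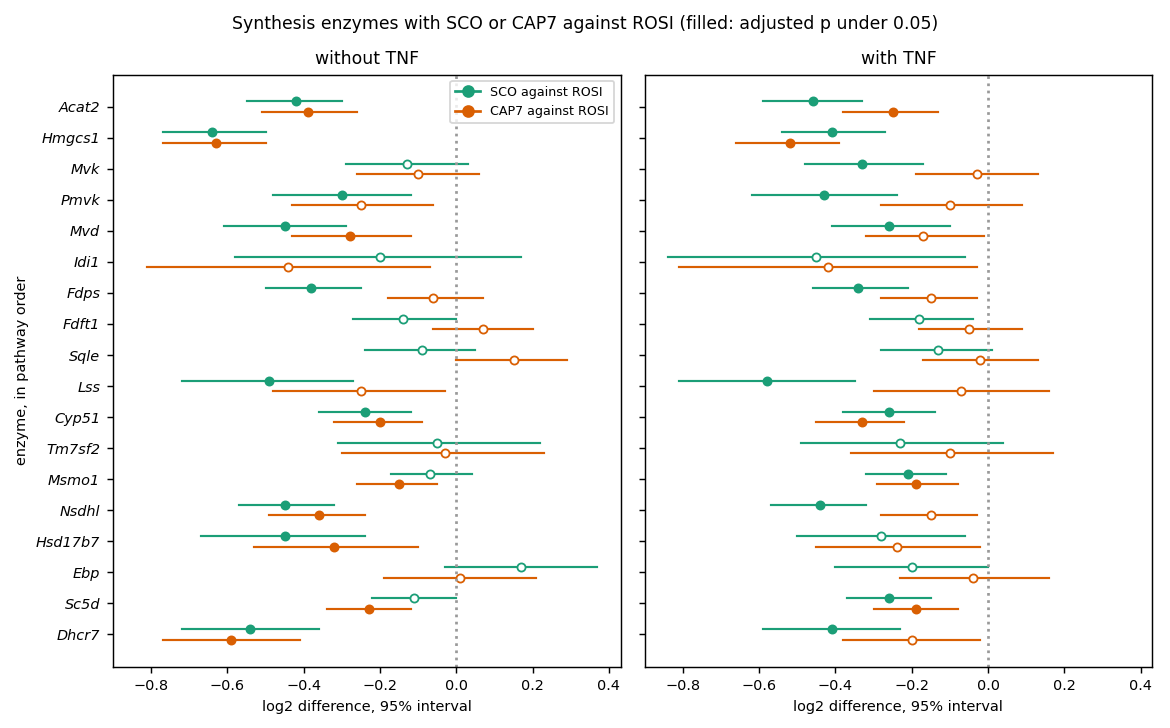
Log2 difference (horizontal axis) with its 95% interval for each of the 18 enzymes in pathway order, SCO against ROSI and CAP7 against ROSI, without TNF (left) and with TNF (right). Filled points have adjusted p under 0.05. Called differences all lie below 0: 10 for SCO and 9 for CAP7 without TNF, 12 and 5 with TNF.

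Outside the enzymes, Soat1 and Abca1 were higher with CAP7 than with ROSI without TNF. For CAP7 no difference from ROSI was called for the other efflux genes, Abcg1 (log2 difference 0.03, 95% interval -0.12 to 0.17) and Nr1h2 (-0.11, 95% interval -0.27 to 0.05). With SCO, Abca1 and Abcg1 were higher than with ROSI without TNF, by 0.24 and 0.23 (adjusted p = 0.0254 and 0.0239). Both calls were lost when single libraries were left out, with adjusted p of up to 0.0983 for Abca1 and 0.117 for Abcg1. Without TNF, Soat1 was at 53.2, 51.2, 51.8 and 49.1 CPM with CAP7 and 31.98, 37.4, 40.2 and 40.3 CPM with ROSI (log2 change 0.46, SE 0.11, adjusted p = 0.004), and Abca1 at 114, 108, 102 and 118 CPM and 75.99, 79.97, 78.5 and 92.1 CPM (log2 change 0.44, SE 0.076, adjusted p = 7.5e-05). With TNF Abca1 again differed (log2 change 0.37, SE 0.075, adjusted p = 0.000705), with libraries at 167, 145, 125 and 150.4 CPM for CAP7 and 104, 126, 109.9 and 112 CPM for ROSI, which overlapped at 1 library. Soat1 with TNF had 0.32, 95% interval 0.10 to 0.54 (adjusted p = 0.0532). Npc1 with TNF was higher with SCO than with ROSI (log2 change 0.53, SE 0.12, adjusted p = 0.00149). The Npc1 difference of CAP7 from ROSI was 0.45 (adjusted p = 0.0123, or 0.0549 and 0.0937 without CAP7 replicate 4 or ROSI replicate 1). Insig1 was lower than with ROSI in 3 of the 4 comparisons (-0.51 and -0.45 without TNF, -0.52 for CAP7 with TNF), with -0.24, 95% interval -0.44 to -0.04 for SCO with TNF.

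SCO and CAP7 were also compared with each other. Without TNF, 2 genes were lower with SCO and none higher, where 3.04% of all tested genes were called lower and 3.01% higher. With TNF, 7 were lower and none higher, where 5.03% were called lower and 4.13% higher. Under library totals alone the splits were 1 lower and 2 higher, and 5 lower and 1 higher. Fdps without TNF was at 331, 324, 319.9 and 341 CPM with SCO and 408, 421, 416 and 396 CPM with CAP7 (log2 change -0.32, SE 0.061, adjusted p = 0.000957), with no overlap. Sqle was the other (-0.24, adjusted p = 0.0405), and its call was lost, with up to 0.154, without SCO replicate 1, 2, 3 or 4 or CAP7 replicate 1, 2 or 3. With TNF the calls that held whichever library was left out were Insig2 (log2 change -0.50, SE 0.096, adjusted p = 0.000755), Lss (log2 change -0.51, SE 0.11, adjusted p = 0.0033) and Nsdhl (log2 change -0.29, SE 0.062, adjusted p = 0.00196). Insig2 read 48.9, 46.5, 36.9 and 48.4 CPM with SCO and 66.03, 64.3, 59.2 and 65.2 CPM with CAP7. The others were Mvk (-0.30), Pmvk (-0.33), Fdps (-0.19) and Acat2 (-0.20), with adjusted p of up to 0.286 when single libraries were left out. The count with TNF dropped from 7 to 3 without SCO replicate 3 or CAP7 replicate 1. Uncalled enzymes had intervals within -0.47 to 0.61 without TNF and -0.42 to 0.36 with TNF.

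The interaction, the change with a compound in the presence of TNF minus that in its absence, tests whether TNF altered the response. For CAP7 it was called above 0 in 8 enzymes and below 0 in 1 other gene, where 10.3% of all tested genes were called above and 5.92% below. For ROSI it was above 0 in 6 enzymes and below 0 in 2 genes, with 10.1% and 4.51% of all tested genes. For SCO it was above 0 in 1 gene, with 3.51% and 1.13% of all tested genes called above and below.

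**Figure D5:**
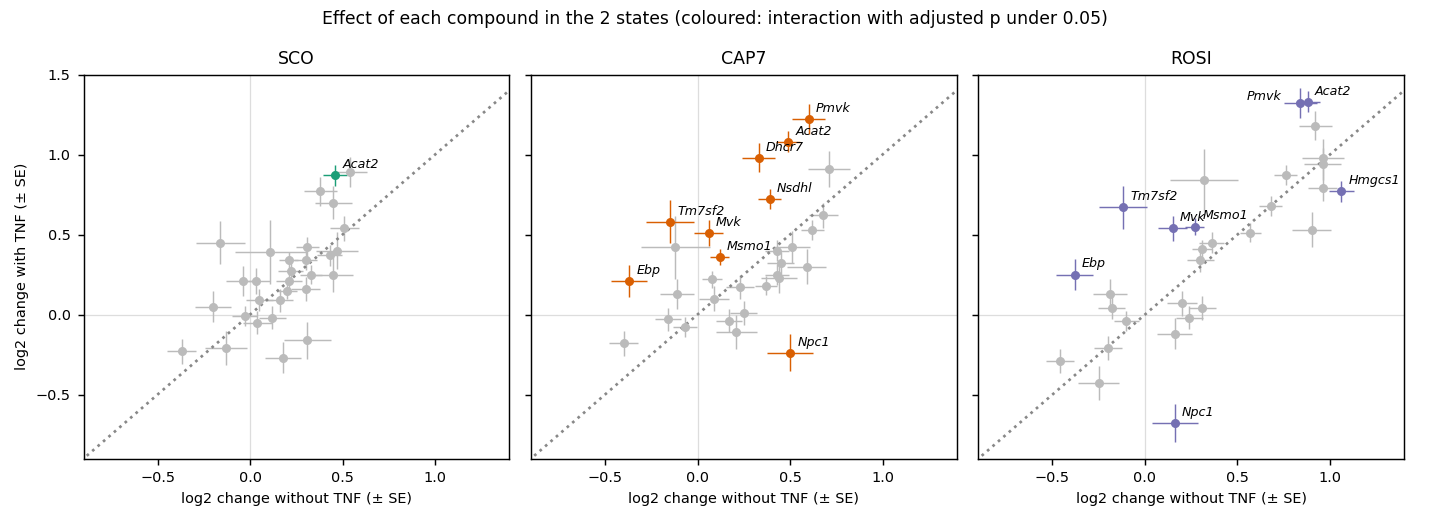
Log2 change with each compound without TNF (horizontal axis) and with TNF (vertical axis) for 30 genes, Ch25h left out, with SE bars and the line of equal change. Named, coloured genes have an interaction with adjusted p under 0.05: Acat2 for SCO, 9 genes for CAP7 and 8 for ROSI.

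Acat2 was the gene with a larger response under TNF for every compound: 0.42, 95% interval 0.23 to 0.60 for SCO, 0.58, 95% interval 0.40 to 0.77 for CAP7 and 0.45, 95% interval 0.27 to 0.63 for ROSI. Pmvk had 0.62, 95% interval 0.36 to 0.89 for CAP7 and 0.47, 95% interval 0.21 to 0.74 for ROSI, and for SCO 0.35, 95% interval 0.08 to 0.61 (adjusted p = 0.145). Tm7sf2, not called with any compound alone, had 0.72, 95% interval 0.35 to 1.10 for CAP7, 0.79, 95% interval 0.41 to 1.17 for ROSI and 0.61, 95% interval 0.23 to 0.99 for SCO, where the adjusted p was 0.0524. Mvk, likewise not called without TNF, had 0.45 for CAP7 and 0.39 for ROSI. Ebp, lower with CAP7 and ROSI alone, had 0.58, 95% interval 0.30 to 0.86 and 0.62, 95% interval 0.34 to 0.90. With TNF it read 155, 139.8, 179.5 and 141 CPM with CAP7 and 166, 152, 139 and 176 CPM with ROSI, against 121, 139, 128 and 145 CPM with TNF alone. Dhcr7 (0.65) and Nsdhl (0.32) were called for CAP7. The interaction of Msmo1 was 0.24 for CAP7 (adjusted p = 0.0192, or 0.0516 and 0.0533 without vehicle replicate 2 or CAP7 replicate 4, both without TNF) and 0.27 for ROSI.

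Npc1 responded the other way. CAP7 alone raised it and ROSI alone left it at 0.16 (adjusted p = 0.337), with libraries at 36.9, 29.2, 38.7 and 28.8 CPM and 20.7, 23.1, 32.03 and 29.99 CPM, whereas under TNF both estimates were below 0. The interaction of Npc1 was -0.73, 95% interval -1.07 to -0.39 for CAP7 and -0.84, 95% interval -1.19 to -0.49 for ROSI, and for SCO -0.47, 95% interval -0.81 to -0.12 (adjusted p = 0.123). Hmgcs1 had -0.29 for ROSI (adjusted p = 0.0321), lost with up to 0.0962 without vehicle replicate 3 or ROSI replicate 1 or 3 without TNF, or ROSI replicate 1, 2 or 4 with TNF. Counting calls in both states, 12 enzymes were higher with SCO with and without TNF, 12 with CAP7 and 14 with ROSI. The share of all tested genes called higher in both states was not computed.

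Among 62 related genes, 60 were tested, and 13 rose and 23 fell with TNF, where 26.7% of all tested genes rose and 27.5% fell. Without TNF, SCO raised 16 and lowered 3 (10.3% and 8.99% of all tested genes), CAP7 23 and 8 (15.2% and 15%), and ROSI 20 and 9 (18.4% and 19%). With TNF, SCO raised 20 and lowered 3 (13.2% and 8.09% of all tested genes), CAP7 24 and 5 (18% and 14.2%), and ROSI 28 and 7 (19.6% and 16.3%). The same shares are the background for the lists below. Of 17 tested genes of SREBP processing and SREBP targets outside sterol synthesis, 7 fell and 2 rose with TNF, with log2 changes of -2.68 for Fasn, fatty acid synthase, -2.09 for Acss2, which makes acetyl-CoA from acetate, and -1.44 for Me1, malic enzyme. The related genes named here were all called, with SEs from 0.060 to 0.19. With TNF present, 9, 9 and 8 of them rose with SCO, CAP7 and ROSI and 1, 1 and 2 fell, and Acss2 rose by 0.95, 1.47 and 1.57. Tmem97, a sterol-regulated membrane protein, rose by 0.48, 0.69 and 0.74 with SCO, CAP7 and ROSI without TNF. Srebf1 fell with CAP7 (-0.45) and ROSI (-0.50) without TNF and rose with SCO (0.53), CAP7 (0.60) and ROSI (0.63) with TNF.

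The isoprenoid branches leave the pathway at farnesyl pyrophosphate, towards dolichol, ubiquinone and prenylated proteins. Of 12 tested genes, 4 fell and 1 rose with TNF: Fnta, a farnesyltransferase subunit, at -1.07 and Nus1, of dolichol synthesis, at 0.74. ROSI raised 6 without TNF and raised 10 and lowered 1 with TNF. Nus1 rose by 0.40 with SCO, 0.59 with CAP7 and 1.00 with ROSI without TNF. Among 18 lipoprotein receptor and transport genes, 7 rose and 8 fell with TNF, against 26.7% and 27.5% of all tested genes. Scarb1, a receptor for high-density lipoprotein, fell by 1.11 and the sterol transporter Gramd1b by 1.38 on the log2 scale, while Lipa, the lysosomal ester hydrolase, rose by 0.75. With TNF present Scarb1 rose by 1.04 with SCO, 1.30 with CAP7 and 1.76 with ROSI. Of 14 tested LXR partners and targets, 3 rose and 5 fell with TNF, near those shares. Lpcat3, a phospholipid-remodelling LXR target, was at -0.90 with TNF, and with SCO, CAP7 and ROSI at 0.54, 0.65 and 1.07 without TNF and 0.70, 0.81 and 1.18 with it. Other genes of this list fell with the compounds. Rxra was at -0.68, -0.76 and -0.98 with SCO, CAP7 and ROSI without TNF. Cyp7b1 was at -1.07, -1.41 and -1.05 with SCO, CAP7 and ROSI in the presence of TNF.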

How the data were processed

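Libraries were made from total RNA with the Quant-Seq 3' mRNA-Seq kit, per the labels' protocols. The submitters' processing notes name cutadapt 4.9, STAR 2.7.11b, HTSeq 2.0.5, R 4.4.1, limma 3.60.6 and build GRCm39. The deposited table holds whole-number counts per gene made by the authors, not normalized. The sources used here do not state the strand setting or how reads that match several genes were counted, so genes with near-identical copies or overlapping neighbours are uncertain. From these counts edgeR 4.0.16 (R 4.3.3) was run here on all 32 libraries: filterByExpr by group, TMM factors (0.942 to 1.074), 1 mean per group, quasi-likelihood F test (24 residual degrees of freedom), and Benjamini-Hochberg adjustment over 14428 genes for each of 16 comparisons. Intervals are 95%. Replicates differed beyond sampling noise (lowest chi-square per degree of freedom 6.48 over 48 pairs).

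The members and gene lists were chosen with earlier results of these data known. All 31 genes could be named. Related genes were named from the at most 4 called genes of lowest p per list and comparison. Values in every library are given for members called with a log2 change of at least 0.58 against a vehicle control. Promoters were to be those of the strongest falls and rises with TNF. The script was tested on simulated counts. Alternatives were DESeq2 1.42.0, voom in limma 3.58.1, RLE factors, library totals alone, other low-count filters, separate fits, a replicate block, removal of mitochondrial genes and the most abundant gene, each library left out, and, added after the data were seen, thinning to the lowest total.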

Additional observations from a re-analysis of the deposited data

Results flagged for a closer look

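In 16 of 248 sets of 4 replicate values (6.5%), 1 library stood far from the other 3 by Dixon's test, where chance gives about 1 in 20. In normalized CPM these were Hmgcs1 at 419.9 in TNF plus CAP7 replicate 4, Fdft1 at 111.6 in ROSI replicate 1, Sqle at 155.2 in TNF replicate 4 and at 144.8 in TNF plus CAP7 replicate 3, and Lss at 34.65 in TNF replicate 2. Nsdhl had 3, at 187.9 in vehicle replicate 4, 273.6 in SCO replicate 3 and 285.2 in CAP7 replicate 2. Hsd17b7 was at 108.3 in TNF plus ROSI replicate 3, where the other 3 libraries were between 66.2 and 72.9. Insig1 was at 100.2 in TNF plus SCO replicate 2, Stard4 at 42.65 in TNF plus ROSI replicate 1 and Mylip at 16.55 in TNF plus CAP7 replicate 3. Ch25h, at 0 in the other 3 libraries of each group without TNF, was at 0.1301 in vehicle replicate 1, 0.3609 in SCO replicate 1, 0.5132 in CAP7 replicate 2 and 0.1125 in ROSI replicate 1. With 3 libraries at 0, any count in the remaining library gives a flag, so these Ch25h flags were fixed in advance. They are included in the 16 sets and in the 6.5%, so that share cannot be read as an excess over the 1 in 20.

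The response to a compound differed between cells with and without TNF, by the interaction test, in the following genes (log2 difference). For SCO it was Acat2 at 0.42. For CAP7 these were Tm7sf2 at 0.72, Dhcr7 at 0.65, Pmvk at 0.62, Ebp and Acat2 at 0.58 each, Mvk at 0.45, Nsdhl at 0.32, Msmo1 at 0.24 and Npc1 at -0.73. For ROSI these were Tm7sf2 at 0.79, Ebp at 0.62, Pmvk at 0.47, Acat2 at 0.45, Mvk at 0.39, Msmo1 at 0.27, Hmgcs1 at -0.29 and Npc1 at -0.84.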

How the results depend on the processing

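Of 496 values (31 genes in 16 comparisons), none that was called, in the reported fit or under an alternative, changed sign under any alternative run, with or without a library left out; uncalled values near 0 could. Library totals alone cost 28 calls and added 23, no low-count filter cost 19 and added 19, and thinning cost 13 and added 5. The counts of called genes among the 31 stayed within 1.5 times the reported ones in all comparisons except 3. For SCO against CAP7 without TNF the count of 2 became 4 with the 5 CPM filter, 4 with DESeq2, 5 with only the groups compared and 1 after thinning, and 1 to 2 with 1 library left out. For SCO against CAP7 with TNF the count of 7 became 4 with only the groups compared and 3 to 8 with 1 library left out. For the interaction of SCO with TNF the count of 1 became 3 under library totals alone, 5 without a filter, 3 with the 5 CPM filter, 4 with DESeq2, 2 with voom, 5 with only the groups compared, 2 without mitochondrial genes and the most abundant gene, 2 after thinning, and 1 to 3 with 1 library left out. Among the enzymes alone, the 5 lower with CAP7 than with ROSI under TNF became 3 under library totals alone, without a filter and after thinning, and 2 with only the groups compared, and the 6 lower with SCO than with CAP7 under TNF became 3 with only the groups compared. The cause was not tested. With the replicate block that interaction count was 2, and the block changed the call of 4 of the 496 values. In none of the 16 comparisons did every same-numbered pair of samples deviate together with a correlation over 0.1, so the reported fit has no block. Over all groups these correlations ran from -0.455 to 0.522 in 112 pairs, with 34 over 0.1 and 39 highest for their own number. They were highest for their own number in all 4 pairs of SCO with and without TNF (0.168 to 0.44) and of SCO with ROSI, both without TNF (0.088 to 0.183), a hint from the data that these numbers may be shared. Idi1, with 37 counts in its lowest library, had the widest intervals of the enzymes, and Ch25h without TNF is limited by counts of 0 to 11.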
